A study of Rattus norvegicus with 36 samples.

Results

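The genes that make, desaturate and lengthen fatty acids in rat liver were followed across 5 doses of decabromodiphenyl oxide (decaBDE), a brominated flame retardant. The 10 genes are the desaturases Fads1, Fads2 and Scd, the elongases Elovl2, Elovl5 and Elovl6, the synthesis enzymes Acly, Acaca and Fasn, and the transcription factor Srebf1. They were taken from the 31042 probe sets tested as those whose annotation gives only 1 of these symbols. All 10 genes were found, on 15 probe sets, among 14217 genes with a symbol of their own; Elovl5, Elovl6, Fasn, Acaca and Srebf1 have 2 probe sets each, and 0 of the 15 are shared with another gene. For a gene with more than 1 probe set, the values below are those of the brighter one unless the second is named.

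The rats were male Harlan Sprague Dawley animals, 7 weeks old at the start and fed the NTP-2000 diet. They were gavaged on 5 consecutive days with corn oil alone (vehicle) or with decaBDE in corn oil, at 5 ml/kg, the daily doses being 0.1 mg/kg, then 0.959 mg/kg, 9.59 mg/kg, 95.9 mg/kg and at the top 959 mg/kg, so every group received the same daily volume of an oil that is itself rich in polyunsaturated fat. Left liver lobe RNA from 1 day after the last dose was measured on Affymetrix 3' arrays, 6 arrays a group and 36 in all. Levels are log2 RMA signals, so a difference of 1 is a doubling of signal, and levels are compared only within a gene.

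In liver, citrate is split by Acly to cytosolic acetyl-CoA, which Acaca carboxylates to malonyl-CoA and Fasn assembles into palmitate. Elovl6 lengthens saturated and monounsaturated chains and Scd places the first double bond, while Srebf1 is the insulin-responsive transcription factor of this de novo route. Polyunsaturated fats of the diet follow another route: Fads2 (the delta-6 desaturase) and Fads1 (the delta-5 desaturase) add double bonds, and Elovl5 and Elovl2 lengthen the chains towards arachidonic and docosahexaenoic acid. Both routes are known to respond to feeding, insulin and dietary polyunsaturated fat.

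The upstream 250 bases of 3 genes are shown because the results turn on them: Fads2, the single gene here with a dose trend past the threshold, Fads1, its neighbour on chromosome 1 and a partner in variation between arrays, and Acly, a member of the closest pair. They are RefSeq sequences of the GRCr8 rat assembly, read 5′ to 3′ on the gene's own strand and ending at the base before the annotated start. The windows are chr1:216172034-216172283 on the minus strand for Fads2, chr1:216252442-216252691 on the plus strand for Fads1, and chr10:85963632-85963881 on the minus strand for Acly. Capitals mark matches to CCAAT, the NF-Y box, or GGGCGG, the GC box bound by Sp1, on either strand, so CCGCCC is a GC box on the other strand.
Fads2: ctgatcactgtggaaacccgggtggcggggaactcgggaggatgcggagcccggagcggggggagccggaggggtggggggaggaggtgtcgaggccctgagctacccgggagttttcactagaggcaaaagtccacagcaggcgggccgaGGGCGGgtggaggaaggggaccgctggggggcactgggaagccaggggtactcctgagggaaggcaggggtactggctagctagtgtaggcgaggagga
Fads1: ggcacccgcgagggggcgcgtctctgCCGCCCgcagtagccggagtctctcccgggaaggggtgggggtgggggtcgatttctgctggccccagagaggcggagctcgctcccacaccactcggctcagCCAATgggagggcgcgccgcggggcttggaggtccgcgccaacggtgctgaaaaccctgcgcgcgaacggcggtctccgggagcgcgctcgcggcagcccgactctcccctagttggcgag
Acly: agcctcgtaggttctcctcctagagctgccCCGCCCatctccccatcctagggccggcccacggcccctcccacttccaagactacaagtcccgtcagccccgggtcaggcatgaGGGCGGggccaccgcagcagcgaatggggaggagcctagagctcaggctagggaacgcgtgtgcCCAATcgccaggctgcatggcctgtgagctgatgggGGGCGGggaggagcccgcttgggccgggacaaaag
The Fads2 window held 1 GC box and no CCAAT, the Fads1 window 1 of each, and the Acly window 1 CCAAT and 3 GC boxes. Promoter sequence of 250 bases before to 50 after the start was available for 7 of the 10 genes, in 9 windows, since Srebf1 and Elovl2 have 2 each. Of these 9 windows, 5 had a CCAAT match, against 37.5% of all 33469 windows of this length, and 7 had a GC box, against 33.1%. The E-box CACGTG was found in 1 of the 9, of Elovl5, against 6.42% of windows, and the sterol element TCACNCCAC in 0 of 9, against 1.12%. Windows of 1 gene are not independent of each other. Both strands were searched, and the 4 motifs were counted apart from each other. A match describes the letters of the window and not a bound site.

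Fads2 was the member with a dose response. Its signal was near vehicle at 0.1 and 0.959 mg/kg and lower from 9.59 mg/kg upward, and it fell along the dose rank by 0.39 log2 units from vehicle to the highest dose on the fitted line. In vehicle livers its lowest, median and highest values were 11.02, 11.23 and 11.36. They were 11.08, 11.2 and 11.48 at 0.1 mg/kg, and 10.85, 11.2 and 11.45 at 0.959 mg/kg. These groups lay over one another. At 9.59 mg/kg the values were 10.91, 11.07 and 11.18, at 95.9 mg/kg 10.59, 10.97 and 11.28, and at 959 mg/kg 10.71, 10.86 and 11.18. Of 6 arrays a group, 0, 1, 2, 3 and 5 lay below every vehicle array from 0.1 to 959 mg/kg, so the highest dose still overlapped vehicle through 1 array.

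The slope of Fads2 was -0.0776 log2 units per step of dose rank (vehicle 0 to highest dose 5; SE 0.0165, 95% interval -0.111 to -0.044, limma adjusted p = 0.016). It was the sole member called in the trend (adjusted p under 0.05 over all probe sets), 1 of 10, where 0.393% of all probe sets were called. Called probe sets that fell were 0.058% of all probe sets, 18 in number, and Fads2 stood 6th of these by p. The highest dose alone did not pass: Fads2 averaged 10.88 ± 0.17 at 959 mg/kg and 11.22 ± 0.14 in vehicle (SD, n = 6 each), a log2 difference of -0.34 (0.79-fold, 95% interval -0.54 to -0.14, limma adjusted p = 0.31). The trend call held with each of the 36 arrays left out in turn, with adjusted p from 0.00461 to 0.0472. It was lost when dose entered in mg/kg (adjusted p = 0.366) and when the 5 dose groups were fitted without vehicle, where the slope was -0.098 (adjusted p = 0.102).

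**Figure D1:**
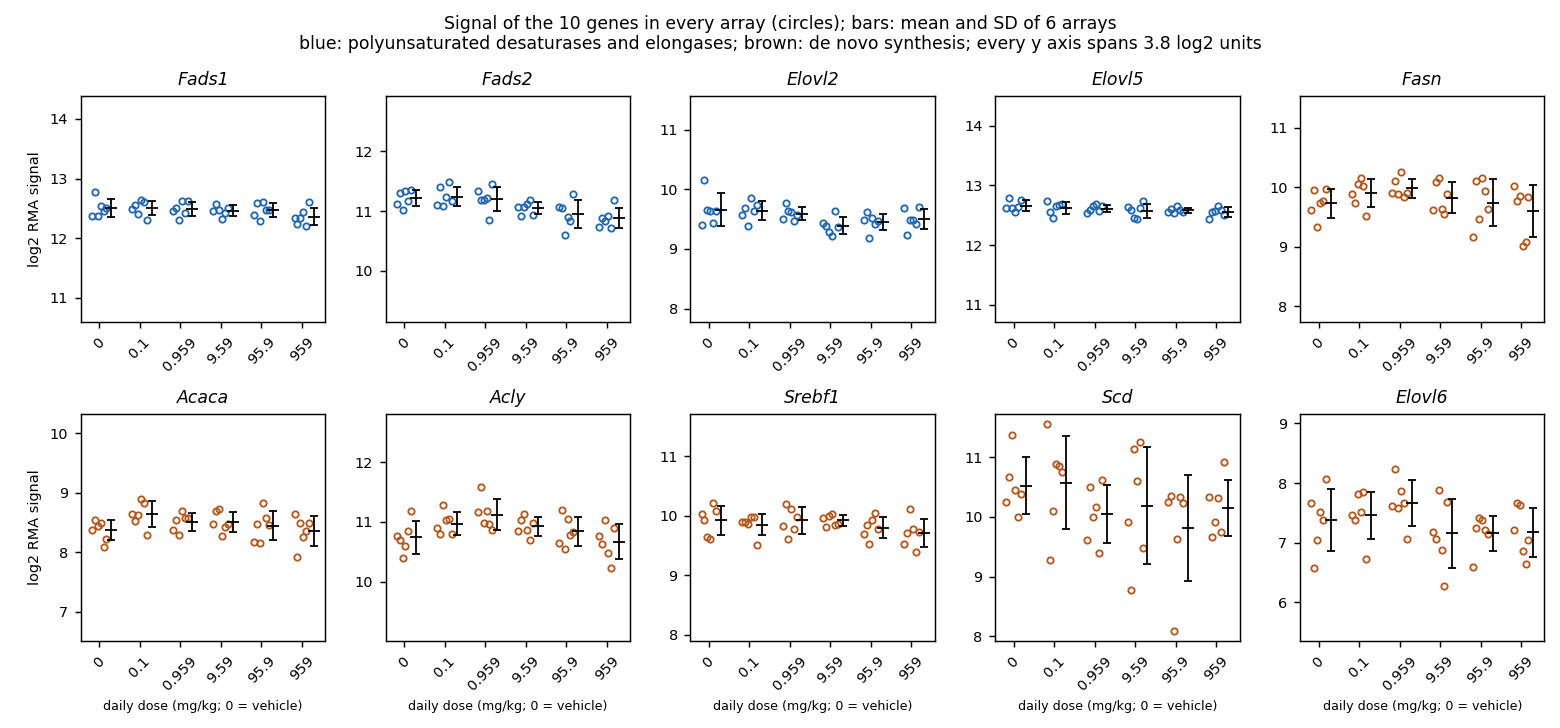
Log2 RMA signal (y axis) of each of the 10 genes in all 36 arrays by daily dose in mg/kg (x axis, 0 = vehicle). Circles are arrays and bars the mean and SD of 6. Fads2 has 5 of 6 arrays at 959 mg/kg below every vehicle array, and Scd and Elovl6 have the widest scatter.

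None of the 10 genes passed in any comparison of a single dose with vehicle. The share of probe sets called by limma was 0% at 0.1 mg/kg, 0.029% at 0.959 mg/kg, 0.116% at 9.59 mg/kg, 0.0902% at 95.9 mg/kg and 0.11% at 959 mg/kg, so a count of 0 among 10 genes is near that background. The mean of the 5 doses (0.0805% called) and the moderated F-test for any dose (0.135% called) also gave 0 of 10. At an unadjusted p under 0.05 the members numbered 1, 1, 1, 2 and 2 from 0.1 to 959 mg/kg, 0 for the mean of doses, 3 for the trend and 3 for any dose. At that unadjusted limma threshold 1175, 1882, 2673, 2177 and 1888 of all 31042 probe sets passed from 0.1 to 959 mg/kg. For the mean of doses 1905 passed, and for the trend 2703. For any dose the number over all probe sets was not counted, so the 3 of 10 there has no background beside it. On the same arrays Cyp1a1, the classic dioxin-responsive P450, rose by 4.72 log2 units at 959 mg/kg (limma adjusted p = 3.61e-17) and the efflux pump Abcc3 by 1.17 (adjusted p = 0.000551). A linear model without variance moderation also called 0 of the 10 members at each dose. All 5 dose comparisons share the 6 vehicle arrays and are not independent of each other.

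The other genes of the polyunsaturated route had smaller differences that did not pass. Fads1 had a lowest, median and highest value of 12.21, 12.34 and 12.6 at 959 mg/kg, against 12.37, 12.49 and 12.77 in vehicle. In words, 4 of 6 high-dose arrays lay below every vehicle array while the ranges overlapped. The Fads1 difference was -0.14 (95% interval -0.29 to 0, limma adjusted p = 0.829), and at the other doses its group means stayed within 0.05 of vehicle. Without vehicle replicate 2, the array at 12.77, the Fads1 difference at 959 mg/kg was -0.091. Those at the lower doses then ran from 0.006 to 0.047.

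Elovl2, which lengthens the longer polyunsaturated chains, was lowest at the middle dose. Its values there were 9.22, 9.37 and 9.64 (lowest, median and highest at 9.59 mg/kg), against 9.4, 9.64 and 10.15 in vehicle, a difference of -0.27 (limma adjusted p = 0.4). The ranges overlapped, with 4 of 6 arrays at 9.59 mg/kg below every vehicle array. The difference was -0.15 at 959 mg/kg (adjusted p = 0.878). A single high vehicle array, replicate 2 at 10.15, entered each of these: without it the differences were -0.17 at 9.59 mg/kg and -0.05 at 959 mg/kg.

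Elovl5, which acts on shorter polyunsaturated chains, had the smallest spread of the 10 by its brighter probe set. Its values were 12.43, 12.56 and 12.66 at 959 mg/kg, against 12.55, 12.63 and 12.78 in vehicle, and the ranges overlapped. The difference was -0.11 (95% interval -0.22 to 0, limma adjusted p = 0.817), and the second probe set also gave -0.11 (adjusted p = 0.928). The SD between arrays of 1 dose group was 0.0849 log2 units by the brighter and 0.187 by the second probe set, where the median of all probe sets was 0.141.

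Of the 6 de novo synthesis genes, 5 had their highest group mean at 0.1 or 0.959 mg/kg, and none was called. Acly had values of 10.86, 11.08 and 11.58 (lowest, median and highest) at 0.959 mg/kg, against 10.39, 10.73 and 11.18 in vehicle. All 6 arrays at 0.959 mg/kg lay above the vehicle median and 2 of 6 above every vehicle array. The difference was 0.38 (1.3-fold, 95% interval 0.11 to 0.65, limma adjusted p = 0.756). Acly differed from vehicle by -0.07 at 959 mg/kg (95% interval -0.34 to 0.2).

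Acaca was highest at the lowest dose. Its values were 8.29, 8.64 and 8.9 at 0.1 mg/kg, against 8.09, 8.41 and 8.55 in vehicle, and 4 of 6 arrays exceeded every vehicle array. The difference was 0.27 by its main probe set and 0.26 by the second, with limma adjusted p of 1 for both. The main probe set gave 0 at 959 mg/kg (95% interval -0.23 to 0.23).

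Fasn followed a like course with more scatter. Its values were 9.83, 9.91 and 10.25 at 0.959 mg/kg and 9.02, 9.8 and 10.02 at 959 mg/kg, while vehicle had 9.33, 9.75 and 9.97. All 3 groups overlapped, and the highest dose held both the lowest arrays and arrays as high as vehicle. The differences were 0.25 (limma adjusted p = 0.896) and -0.14 (adjusted p = 0.959). The second Fasn probe set gave 0.35 and -0.08, also without a call.

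Srebf1 differed from vehicle by -0.07 at 0.1 mg/kg and 0 at 0.959 mg/kg. Its values were 9.39, 9.72 and 10.11 at 959 mg/kg, against 9.61, 9.98 and 10.21 in vehicle, with 2 of 6 arrays below every vehicle array. The difference was -0.21 (95% interval -0.44 to 0.01, limma adjusted p = 0.836), and -0.12 by the second probe set. The array counts RNA of the gene as a whole; cleavage of the protein, by which Srebf1 becomes active, is not measured.

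Scd and Elovl6 varied most. Scd, which makes oleate and palmitoleate, had values of 8.08, 10.25 and 10.35 at 95.9 mg/kg and 9.67, 10.11 and 10.92 at 959 mg/kg, while vehicle had 10, 10.42 and 11.38. The groups overlapped broadly. The differences were -0.71 at 95.9 mg/kg (limma adjusted p = 0.754) and -0.38 at 959 mg/kg (95% interval -1.15 to 0.4, adjusted p = 0.939), and without replicate 3, the array at 8.08, that of 95.9 mg/kg was -0.36. Elovl6 had values of 6.65, 7.13 and 7.66 at 959 mg/kg, against 6.58, 7.46 and 8.07 in vehicle, so its high-dose arrays fell inside the vehicle range. Its difference was -0.2 (adjusted p = 0.956), after 0.3 at 0.959 mg/kg (adjusted p = 0.916).

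**Figure D2:**
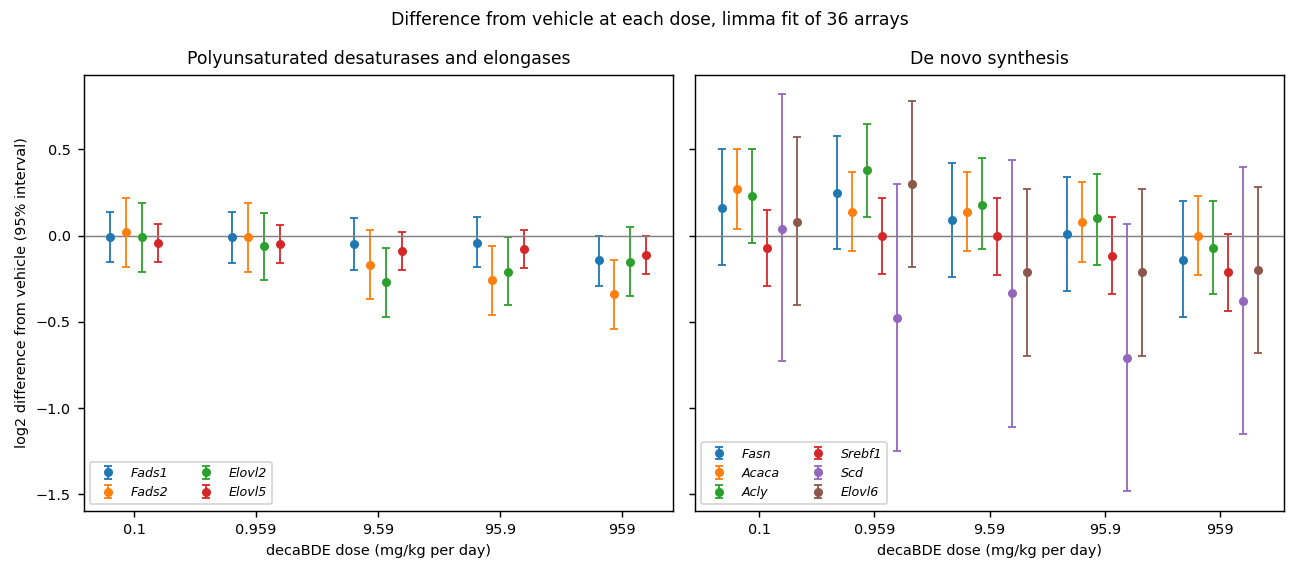
Log2 difference of each dose group from vehicle (y axis) with its 95% interval from the limma fit, by decaBDE dose in mg/kg (x axis), for the 4 polyunsaturated genes and the 6 de novo genes. Fads2 is at 0.02 for 0.1 mg/kg and at -0.34 for 959 mg/kg, and the intervals of Scd and Elovl6 are the widest.

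The genes differed in spread between arrays of the same dose. Within dose groups the SD was 0.713 log2 units for Scd and 0.441 for Elovl6, above that of 99.7% and 98.7% of probe sets. It was 0.301 for Fasn, 0.24 for Acly, 0.206 for Acaca and 0.199 for Srebf1, above that of 86.3% to 95.9% of probe sets. It was 0.175 for Fads2 and 0.174 for Elovl2, above that of 77.3% and 77.1% of probe sets, 0.125 for Fads1 (33.4%) and 0.0849 for Elovl5 (4.71%), though the second Elovl5 probe set had 0.187 (82.3%).

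As a group, the 4 polyunsaturated genes were lower than vehicle in 3, 4, 4, 4 and 4 of 4 cases from 0.1 to 959 mg/kg, with median log2 differences of -0.00952, -0.0305, -0.13, -0.143 and -0.147. Without vehicle replicate 2 these counts were 1, 1, 3, 3 and 4 of 4 and the medians 0.044, 0.02, -0.108, -0.081 and -0.089, so the sign at 0.1 and 0.959 mg/kg rests on that array. The 6 de novo genes were higher than vehicle in 5, 4, 3, 3 and 0 of 6 cases, with medians of 0.124, 0.196, 0.0434, -0.0531 and -0.168; Fasn at 95.9 mg/kg turned to -0.026 when quantile normalization was repeated. At 959 mg/kg all 10 were below vehicle with a median of -0.147, though Acaca only by a difference that rounds to 0 and that was 0.004 after subtracting each array's median and 0.054 by its second probe set, and leaving out single arrays also turned Acaca or Acly. There 51.9% of the 14217 genes were above vehicle and the median of all was 0.00415. All 10 slopes on dose rank were negative too, 1 of them called. These are counts of genes that vary together between arrays, so they are not 10 separate observations.

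Averaged per array over genes centred on their vehicle means, the polyunsaturated genes stood at -0.144 ± 0.0656, -0.146 ± 0.115 and -0.186 ± 0.1 at 9.59, 95.9 and 959 mg/kg (SD, n = 6 each). Vehicle arrays ran from -0.134 to 0.244, so the groups overlapped. All 6 arrays of each of these dose groups lay below the vehicle mean, but that mean rests on vehicle replicate 2, at 0.244. Without this array, an alternative chosen after seeing the data, 5 of 6 arrays of each group lay below it, and the averages were -0.096, -0.097 and -0.138. The de novo average was 0.121 ± 0.236 at 0.1 mg/kg, 0.098 ± 0.2 at 0.959 mg/kg and -0.166 ± 0.236 at 959 mg/kg. The polyunsaturated minus the de novo average was -0.129, -0.132, -0.122, -0.004 and -0.02 from 0.1 to 959 mg/kg, each smaller than its SD over 6 arrays, which ran from 0.165 to 0.246. That SD describes single arrays and not the error of a group mean, and the difference between the routes was not tested. Vehicle replicate 2, at 0.288, was the highest vehicle array in this measure and entered the vehicle mean behind each value.

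**Figure D3:**
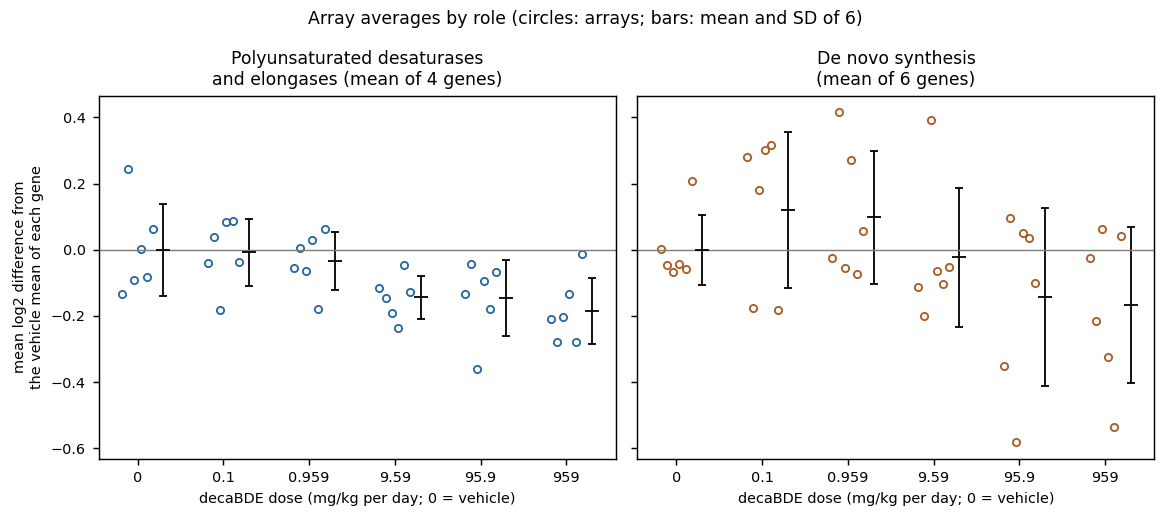
Per array, the mean log2 difference from each gene's vehicle mean (y axis) by dose in mg/kg (x axis, 0 = vehicle), for the 4 polyunsaturated and the 6 de novo genes. Circles are arrays and bars the mean and SD of 6; the polyunsaturated average lies below 0 in all 6 arrays of each of the 3 highest doses, and in 5 of 6 against the vehicle mean without replicate 2 (the circle at 0.244).

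Between arrays of the same dose, some pairs of the genes moved together. With group means removed, 45 pairs of the 10 genes were compared over 36 arrays, and 10 pairs passed a two-sided permutation test after Benjamini-Hochberg adjustment over the 45, all of them positive. Of these, 6 were among the 15 de novo pairs, 2 among the 6 polyunsaturated pairs and 2 among the 24 pairs across the routes.

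Fasn and Acly were the closest pair, with Pearson's r = 0.76 and Spearman's rho = 0.806. Each had a permutation p of 1e-05, the smallest that 100000 permutations can give (adjusted p = 0.00045), and r was 0.775 without the 2 arrays farthest from the Fasn median. Acly also went with Elovl6 (r = 0.658, permutation p = 4e-05, adjusted p = 0.0009; rho = 0.64, p = 0.00018) and with Srebf1 (r = 0.626, p = 0.00048, adjusted p = 0.00513; rho = 0.555, p = 0.00159), at r of 0.586 and 0.584 without 2 arrays. Scd was in none of the 10 pairs, its highest r being 0.412, with Fads2.

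Both pairs across the routes held Fads1. It went with Acaca (r = 0.649, permutation p = 0.00015, adjusted p = 0.00225; rho = 0.658, p = 0.0001; r = 0.652 without 2 arrays) and with Fasn (r = 0.539, permutation p = 0.00207, adjusted p = 0.0116; rho = 0.571, p = 0.0006; r = 0.519 without 2 arrays). Within its own route it went with Elovl2 (r = 0.606, permutation p = 0.00077, adjusted p = 0.00577; rho = 0.485, p = 0.00555), at r = 0.459 without 2 arrays. Fads1 and Fads2, neighbours on chromosome 1 on opposite strands, had r = 0.487 (permutation p = 0.00656, adjusted p = 0.0328) and rho = 0.445 (p = 0.0148, adjusted p = 0.0591), so the call rests on the measure used. Fads2 passed with no other member.

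**Figure D4:**
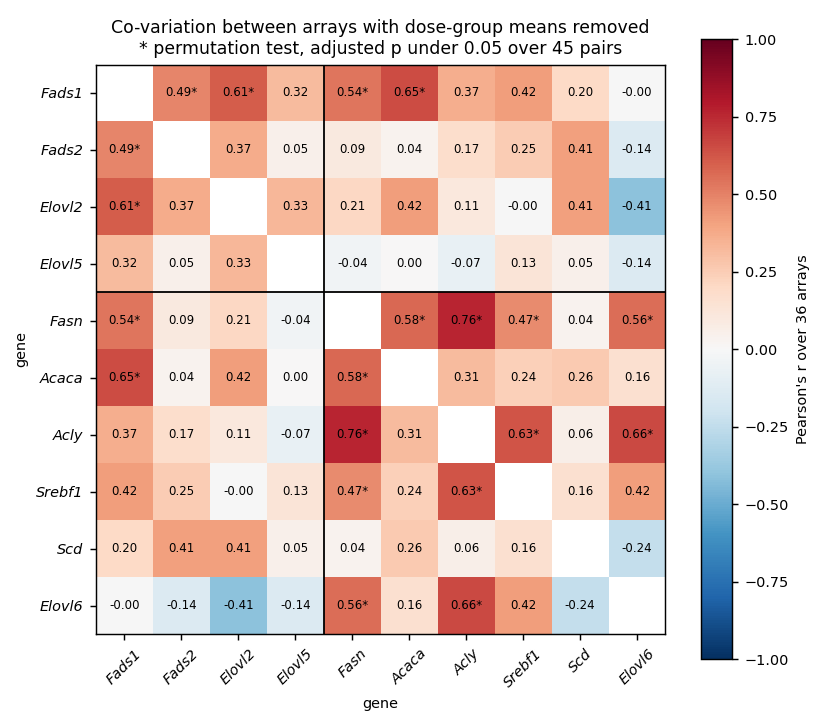
Pearson's r between each pair of the 10 genes (both axes) over 36 arrays with dose-group means removed, from blue (negative) to red (positive); an asterisk marks an adjusted permutation p under 0.05 over 45 pairs. The square of de novo genes holds 6 of the 10 marked pairs, led by Fasn and Acly at 0.76.

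Among 9590 genes at or above the median level, those most like Fasn over the 36 centred arrays were Hsd17b7 (r = 0.774), Msmo1 (0.773), Sqle (0.761), Acly (0.76) and Nsdhl (0.738), and all but Acly encode enzymes of cholesterol synthesis. For Fads1 the nearest were Nsdhl (r = 0.752) and Sc5d (0.743), of the same pathway, then Fyttd1 (0.719), Epm2aip1 (0.71) and Sepsecs (0.697). For Srebf1 they were Acly (0.626), Psmc5 (0.617), Arfgap2 (0.612), Cd164 (0.596) and Clcn6 (0.588). For Fads2 they were Papola (0.632), Anapc1 (0.629), Dctn2 (0.621), Dgat1 (0.61), which makes triglyceride, and Etf1 (0.6). These r are the highest of the 9590 and are given as a description.

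Of the enzymes that work with the desaturases and elongases, 8 of 10 listed were measured. At 959 mg/kg 7 of the 8 were above vehicle and 1 below, with a median log2 difference of 0.0918. Of all probe sets, limma called 0.116%, 0.0902% and 0.11% at 9.59, 95.9 and 959 mg/kg and 0.393% in the trend. Among the 8, 1 was called, Cyb5a, the cytochrome b5 that hands electrons to the desaturases and to P450 enzymes. Its lowest, median and highest values were 13.8, 13.83 and 13.89 at 959 mg/kg, against 13.55, 13.6 and 13.62 in vehicle. All 6 arrays lay above every vehicle array at each dose from 0.959 mg/kg upward. Cyb5a rose by 0.17 at 9.59 mg/kg (limma adjusted p = 0.0211), 0.22 at 95.9 mg/kg (adjusted p = 0.000475) and 0.24 at 959 mg/kg (1.18-fold, SE 0.0336, adjusted p = 5.31e-05). Leaving out vehicle replicate 2 or 5, or replicate 1, 4 or 6 of the 9.59 mg/kg group, ended the call at that dose, with adjusted p up to 0.0877. Cyb5a thus went up along the dose rank (adjusted p = 2.08e-07) where Fads2 went down.

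Of the other genes around the pathway, Acot4 alone passed. Of the genes that supply or regulate lipogenesis 16 of 18 were measured and 0 were called in any comparison; Pklr, the liver pyruvate kinase, differed by -0.16 at 959 mg/kg, Mlxipl, the glucose-responsive factor ChREBP, by -0.12, and Pgd of the pentose phosphate route by 0.19. Of other desaturases and elongases 6 of 10 were measured with 0 called; Degs1, the ceramide-forming desaturase, differed by 0.16 at 959 mg/kg, Elovl1 by 0.11 and Scd2 by 0.07. Of 16 of 18 acyl-CoA synthetase and chain-remodelling genes, 1 was called in the trend, where 0.393% of all probe sets were called. This was Acot4, a peroxisomal acyl-CoA thioesterase. Acot4 averaged 8.15 ± 0.24 at 959 mg/kg and 8.49 ± 0.27 in vehicle (SD, n = 6 each, limma trend adjusted p = 0.0344). Leaving out 1 array ended that call in 13 cases, namely vehicle replicates 1, 2 and 4, replicates 2, 3 and 5 at 0.1 mg/kg, 1, 2 and 4 at 95.9 mg/kg, and 1, 4, 5 and 6 at 959 mg/kg, with adjusted p up to 0.105.

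In whole liver RNA, fewer cells of a type and less RNA per cell cannot be told apart. The 9 hepatocyte markers measured averaged 13.87 (arrays 13.82 to 13.91) at 959 mg/kg and 13.9 (13.87 to 13.93) in vehicle. For 8 adipocyte markers, 4 of them under the median level of all probe sets, the averages were 6.66 (6.57 to 6.79) and 6.61 (6.51 to 6.72), and for 5 cholangiocyte markers 5.66 (5.27 to 6.12) and 5.35 (5.12 to 5.72). The adipocyte averages were higher at 9.59 and 95.9 mg/kg, at 6.72 (6.6 to 6.82) and 6.71 (6.57 to 6.82). At 0.1 and 0.959 mg/kg they were 6.56 (6.44 to 6.7) and 6.59 (6.4 to 6.81). Cholangiocyte markers, 2 of the 5 under that median level, were above vehicle for 5, 3, 2, 5 and 5 of 5 from 0.1 to 959 mg/kg. Their median log2 differences were 0.0657, 0.0236, -0.0046, 0.18 and 0.28, and 5 of 5 slopes on dose rank were positive. Of all genes, 53.1%, 52.6%, 54.9%, 53.1% and 51.9% were above vehicle at these doses. Stellate cell markers were above vehicle for 8 of 8 at 9.59 and 95.9 mg/kg (medians 0.146 and 0.256) and 7 of 8 at 959 mg/kg (0.0324). Kupffer cell markers were below vehicle for 7 of 7 at each dose, with medians of -0.486, -0.524, -0.315, -0.187 and -0.22 from 0.1 to 959 mg/kg; they averaged 8.22 (7.73 to 8.57) at 959 mg/kg and 8.45 (7.69 to 8.8) in vehicle. Endothelial markers were below vehicle for 5 of 6 at 959 mg/kg (median -0.0856), and lymphocyte markers for 6 of 6 at 0.959 and 9.59 mg/kg (-0.192 and -0.136) and 3 of 6 at 959 mg/kg. Of the 6 lymphocyte markers, 4 were under the median level of all probe sets. By limma no marker was called in any comparison, and the part of these cell types in the Fads2 trend was not tested. The difference between 3' and 5' actin probe sets, which grows as RNA degrades, averaged 1.14 ± 0.0725 at 959 mg/kg and 1.16 ± 0.0505 in vehicle (SD, n = 6 each). At 0.1 and 0.959 mg/kg it was highest, at 1.24 ± 0.147 and 1.23 ± 0.107. At 9.59 and 95.9 mg/kg it was 1.2 ± 0.0904 and 1.17 ± 0.0803. Of 20 relations of the members with that difference or with Dbp, a clock output gene, 0 passed the permutation test over 36 arrays after adjustment (r from -0.335 to 0.319).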

How the data were processed

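Liver RNA of 36 samples was hybridised to Affymetrix 3' arrays. The deposited values are log2 signals per probe set, made by the authors with RMA from the affy package, per the submitters' processing notes; the affy version and a genome build are not given in the sources used here. RMA subtracts background, equalises the distributions of the arrays and summarises probes, so a change shared by most genes would be removed and low signals are compressed. Array medians ran from 5.12 to 5.21, and precision is limited by the number of arrays, 6 a group. Groups and replicate numbers come from the sample titles; all sample columns were mapped (0 left out). No label says outright whether every array comes from its own rat, so p-values measure the spread between arrays.

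The table has 31099 rows; without 57 array controls, 31042 probe sets were tested. The tool was limma 3.58.1 under R 4.3.3, with group means as coefficients, moderated variances (eBayes), 30 residual degrees of freedom and 5.12 from the prior. Contrasts were each dose, the mean of 5 doses and a straight line in dose rank against vehicle, with a moderated F-test for any dose. P-values were two-sided, with Benjamini-Hochberg adjustment across the whole array and a threshold of 0.05, equal to the 5% the submitters used with maanova, for which limma stood in. Correlations used Python 3.11.15 with 100000 permutations within groups. The fit was tested on simulated data.

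The members and gene lists were chosen with earlier results of these data known. Named genes were all 10 members and the 5 genes most like each of Fasn, Srebf1, Fads1 and Fads2. Cyp1a1 and Abcc3 were named as genes of known response. From each other list, every gene called or else the 3 with the smallest F-test p were taken. Those of cell markers are counted but not printed, and results of the clock gene list are not given. Alternatives were other normalizations, filters, variance models, dose scales and probe sets, weighted arrays, a block for replicate number, and each array left out.

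Whether replicate numbers pair the arrays was checked by the r between deviations from group means, for arrays in different groups. The median r was -0.0344 over 90 pairs with the same number, and 12 of the 90 were over 0.1. It was 0.00851 over 450 pairs with different numbers, and 66 of the 450 were over 0.1. The numbers were not treated as pairs. The array of replicate 6 at 0.1 mg/kg stood farthest from the others on the first principal component; without it Fads2 kept its trend call (adjusted p = 0.0145).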

Additional observations from a re-analysis of the deposited data

Results flagged for a closer look

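A sample far from the rest of its group was looked for in 60 groups of 6 arrays, 10 genes in 6 groups, by the gap to the nearest array as a share of the group's range against Dixon's 95% critical value. It found 4, where chance gives about 1 in 20 groups.

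Elovl2 was high in vehicle replicate 2 (gap 0.653 of the range), at 10.15 with the next array at 9.66. Without it the Elovl2 difference was -0.17, against -0.27 with it, at 9.59 mg/kg. Srebf1 was low in replicate 6 at 0.1 mg/kg (gap 0.757), at 9.5 with the next at 9.86, and this is the array that stood apart over all genes. Its difference at that dose was 0 without the array and -0.07 with it. Scd was low in replicate 3 at 95.9 mg/kg (gap 0.682), at 8.08 with the next at 9.63, and its difference was -0.36 without the array and -0.71 with it. Elovl6 was low in replicate 1 at 95.9 mg/kg (gap 0.658), at 6.6 with the next at 7.14, and its difference was -0.1 without the array and -0.21 with it. By limma none of these 4 genes was called in any comparison, with or without its array. Fads2 had no such array.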

How the results depend on the processing

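Of the recomputed member values, 3125 stayed on the same side of the threshold with the same direction, 68 changed sign without being called either way, 2 lost their call and 0 reversed. Both lost calls are the Fads2 trend, which leaves 0 members called in the trend with dose in mg/kg on a linear scale and 0 with the 5 doses alone and no vehicle arrays. The fit without vehicle was chosen after seeing the data and has fewer samples; for linear dose the cause was not tested. Under the other 9 alternatives the Fads2 trend kept its call. With the replicate block its slope was -0.078 (limma adjusted p = 0.0115), 1 member was called in the trend, and the block changed no other member's call. Over all probe sets, the trend called 122 as reported, 9 with linear dose, 20 without vehicle and 92 to 156 with 1 array left out. At 959 mg/kg the count was 34, between 13 and 49 over all settings run; at 95.9 mg/kg 28, between 16 and 38; at 9.59 mg/kg 36, between 19 and 47; and at 0.959 mg/kg 9, between 1 and 10. Spearman's rho called 10 pairs, 9 of them shared with Pearson's r; Fads1 with Fads2 was lost (adjusted p = 0.0591) and Srebf1 with Elovl6 gained (adjusted p = 0.0486). With 6 arrays a group, the unadjusted 95% interval at 959 mg/kg ran from -1.15 to 0.4 for Scd and from -0.68 to 0.28 for Elovl6. These intervals are not limits of detection, since a call also had to pass the adjustment over all probe sets. Fads2 at 959 mg/kg had an interval of -0.54 to -0.14 and was not called (limma adjusted p = 0.31).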

Other observations

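Genes of fasting and fat oxidation, which run opposite to lipid synthesis in fed liver, were measured for 11 of 14 listed, and 0 were called by limma in any comparison. Of all probe sets, 0% to 0.393% were called in these comparisons. From 0.1 to 959 mg/kg, 8, 8, 9, 10 and 9 of 11 were below the shared vehicle arrays. The median log2 differences were -0.0917, -0.23, -0.251, -0.261 and -0.359. Of all genes, 51.9% to 54.9% were above vehicle at these doses, and their median at 959 mg/kg was 0.00415. At 959 mg/kg Cyp4a1, a fatty acid hydroxylase, differed by -0.41 (95% interval -0.71 to -0.12, limma adjusted p = 0.618). Cpt1a, which admits fatty acids to mitochondria, differed there by -0.47 (95% interval -0.87 to -0.07, adjusted p = 0.76). Acot1, a cytosolic thioesterase, differed by -0.17, but its mean signal of 3.16 lay below the lowest array median of 5.12.

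Sterol-regulated genes were above vehicle for 9 of 9 measured (13 listed) at 0.959 mg/kg, with a median of 0.227, and for 1 of 9 at 959 mg/kg, with a median of -0.0651; 0 were called. At 0.959 mg/kg the differences were 0.32 for Lss, 0.23 for Cyp51 and 0.19 for Fdft1, all enzymes of cholesterol synthesis. Acly, Fasn and Elovl6 also had their highest group means at 0.959 mg/kg. Triglyceride assembly genes (17 of 18 measured) had a median of 0.043 at 959 mg/kg, with 0 called; there the lipid droplet proteins Plin2 and Plin5 differed by -0.26 and -0.19 and Lpin2, a phosphatidate phosphatase, by 0.23.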
